A study of Mus musculus with 12 samples.

Results

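Voltage-gated and potassium ion channel genes were taken as all probe sets whose symbol in the platform annotation starts with Kcn, with Scn or Hcn followed by a digit, or with Cacn. The rule used names alone and no measured value. It found 62 of the 8251 genes that the annotation names singly, with 75 of the 12422 probe sets of the array that are not controls: 51 for potassium channels, 13 for calcium channels, 8 for sodium channels and 3 for hyperpolarization-activated (HCN) channels. The study measured mRNA of the mouse cerebral cortex at E16.5 (day of embryonic development) on Affymetrix U74Av2 oligonucleotide arrays. The 12 arrays fall into 6 groups of 2: a whole hemisphere and its pieces, which the titles call medial, dorsal, ventral, rostral and occipital. No strain, genotype or treatment is given in the labels, the pieces hold all cells of the dissected tissue, and the number of embryos pooled per dissection is not given in the sources used here. Both arrays of a group come from separate dissections according to the protocol text. The titles name a rostral piece where that text lists a lateral one, and the titles were followed.

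The unit throughout is the average difference, the signal of the perfectly matching probes less that of their mismatch partners, averaged over a probe set. It is linear, was scaled per array by the authors, and can be negative. A probe set was called above background on an array when its value passed 1387, which is 2 times the floor of 693.5 estimated from the negative values. Levels of different probe sets cannot be ranked against each other on this scale, so each channel is compared only with itself across arrays. Precision is limited by the number of arrays, 2 per group.

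Ion channels of these families set how a neuron fires. Voltage-gated sodium channels carry the rising phase of the action potential, potassium channels end it and set the resting potential, and calcium channels couple depolarization to transmitter release and to gene transcription. HCN channels open on hyperpolarization and carry a pacemaker current. A pore-forming subunit makes the conducting channel, and auxiliary subunits control its gating and the number of channels that reach the membrane. At this stage of cortical development the hemisphere holds dividing progenitors, migrating cells and young neurons, and inhibitory neurons are entering the cortex from the ventral telencephalon.

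On each array 39.1% to 41.7% of the probe sets lay above the background limit. Across probe sets, Pearson's r was 0.901 to 0.962 between replicates and 0.854 to 0.969 between arrays of unlike groups. Rostral replicate 2 and occipital replicate 1 resembled each other (r = 0.963) more than their own replicates (0.934 and 0.936). This was not particular to them. Occipital and hemisphere replicates 2 (0.969, own replicates 0.936 and 0.901) and medial and dorsal replicates 1 (0.965, own replicates 0.934 and 0.962) did so too. Among pairs of unlike group and unlike number, rostral replicate 2 and occipital replicate 1 had the highest r. Results that rest on the rostral and occipital groups are also given without both. Defining neuronal markers were above background: all 7 of a list of neuronal genes passed the limit on at least 2 arrays. Of the markers of other cells, 0 of 4 astrocyte genes on the array and 0 of 5 pericyte and smooth muscle genes passed it on any array. Every other list had genes above the limit on at least 2 arrays. This held for 7 of 7 GABAergic, 6 of 8 progenitor, 3 of 5 microglial and 2 of 2 oligodendrocyte lineage genes. Endothelial (2 of 6), meningeal (2 of 5), blood (2 of 4), choroid plexus (2 of 4) and thalamus genes (1 of 4) passed as well.

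Most channel probe sets did not exceed background in this tissue. Of the 75, 17 passed the limit on at least 2 arrays, which is 22.7%, where 46.9% of all probe sets did. The 17 probe sets belong to 17 genes and are the ones tested between groups. On all 12 arrays 5 members passed (6.67%), where 31.7% of all probe sets did. A further 12 passed on 2 to 11 arrays, 0 on exactly 1 array, and 58 on none. A value below the limit says that the probe set did not give a measurable signal, not that the mRNA is absent.

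**Figure D1:**
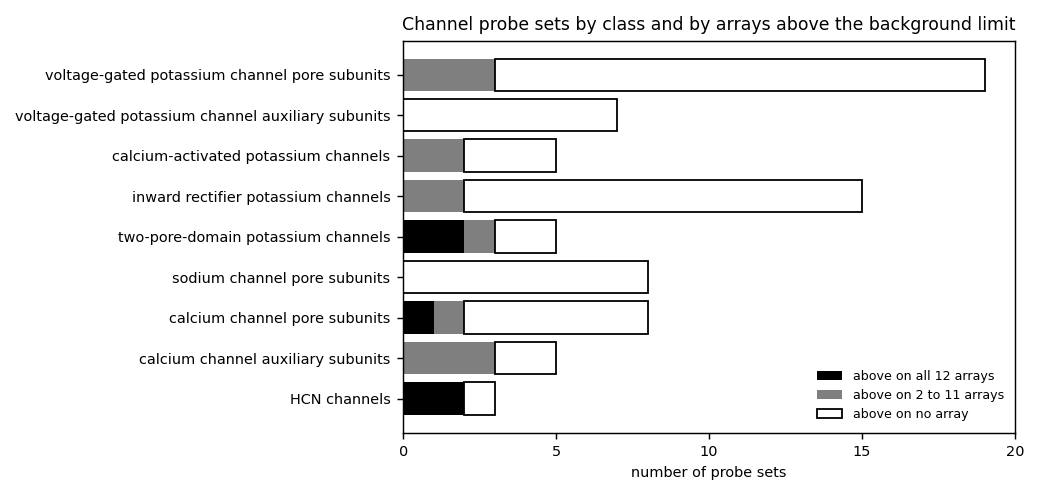
Number of channel probe sets in each of 9 classes, split by whether they were above the background limit of 1387 on all 12 arrays (black), on 2 to 11 arrays (grey) or on no array (white). The voltage-gated potassium channel pore subunits are the largest class, with 3 of 19 above background, and the sodium channel pore subunits have 0 of 8.

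The share above background differed in value from family to family. For the HCN channels it was 2 of 3 probe sets (66.7%), for calcium channels 5 of 13 (38.5%), for potassium channels 10 of 51 (19.6%) and for sodium channels 0 of 8. The families hold few probe sets and the probe sets differ in their own sensitivity, so these shares are given as a description with no test. Below the limit on every array were all 8 sodium channel pore subunit probe sets (Scn1a and Scn8a with 2 each, Scn3a, Scn7a, Scn9a and Scn10a), whose highest value anywhere was 1283, for Scn1a on ventral replicate 1. Likewise, 0 of the 7 probe sets for auxiliary subunits of voltage-gated potassium channels (Kcnab1, Kcnab2, Kcnab3, Kcne1 and Kcne1l) passed the limit.

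Among the voltage-gated potassium channel pore subunits, 3 of 19 probe sets passed: Kcnd2, which carries a fast inactivating current, Kcnh2, an ERG channel, and Kcnq1, a delayed rectifier best known from heart and epithelia. The 16 others included every Kcna probe set (Kcna1 to Kcna7), Kcnc1, Kcnd1, Kcnd3, Kcnh1, Kcns1 and Kcns2. The class labelled calcium-activated potassium channels was drawn by gene symbol, not by how each member is gated. Of its members 2 of 5 passed, the large-conductance channel Kcnma1 and the small-conductance channel Kcnn1, while Kcnmb1, Kcnn4 and Kcnu1 did not. Of the inward rectifiers 2 of 15 passed, Kcnj6 and Kcnj9, which are both gated by G proteins. The background channels of the Kcnk family passed in 3 of 5 cases, Kcnk1, Kcnk2 and Kcnk4, and Kcnk3 and Kcnk7 did not. Of the calcium channel pore subunits 2 of 8 passed, the L-type Cacna1c and the N-type Cacna1b, while Cacna1a, Cacna1e, Cacna1g, Cacna1h and Cacna1s did not. Of the calcium channel auxiliary subunits 3 of 5 passed, Cacna2d1, Cacna2d3 and Cacng2, and Cacnb2 and Cacng1 did not.

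The limit is a threshold, and some members lay close to it. Just inside was Cacng2, at 1409 and 1410 on the ventral arrays and below the limit on the other 10. Just outside were Kcne1l, whose highest value was 1363 on medial replicate 1, and a Kcnab2 probe set with 1349 on ventral replicate 1. At the other end, 5 members were negative on all 12 arrays: probe sets for Kcna1, Kcnh1, Kcnj5, Kcnj15 and Scn8a.

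The channels measured on every array were Kcnk1, Kcnk2, Cacna1c, Hcn2 and Hcn3. Kcnk2, a background potassium channel opened by stretch and by lipids, had the lowest ratio of highest to lowest value among these 5: it ran from 5457 on medial replicate 1 to 8141 on ventral replicate 2, with a median of 7328. Cacna1c, the pore of the L-type calcium channel, ran from 1893 on hemisphere replicate 1 to 3519 on hemisphere replicate 2, so both extremes came from the same group. Hcn2 ran from 5193 on rostral replicate 1 to 13918 on medial replicate 2. Its medial replicate 1 was at 6140, so the replicates of a group spanned most of the range.

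**Figure D2:**
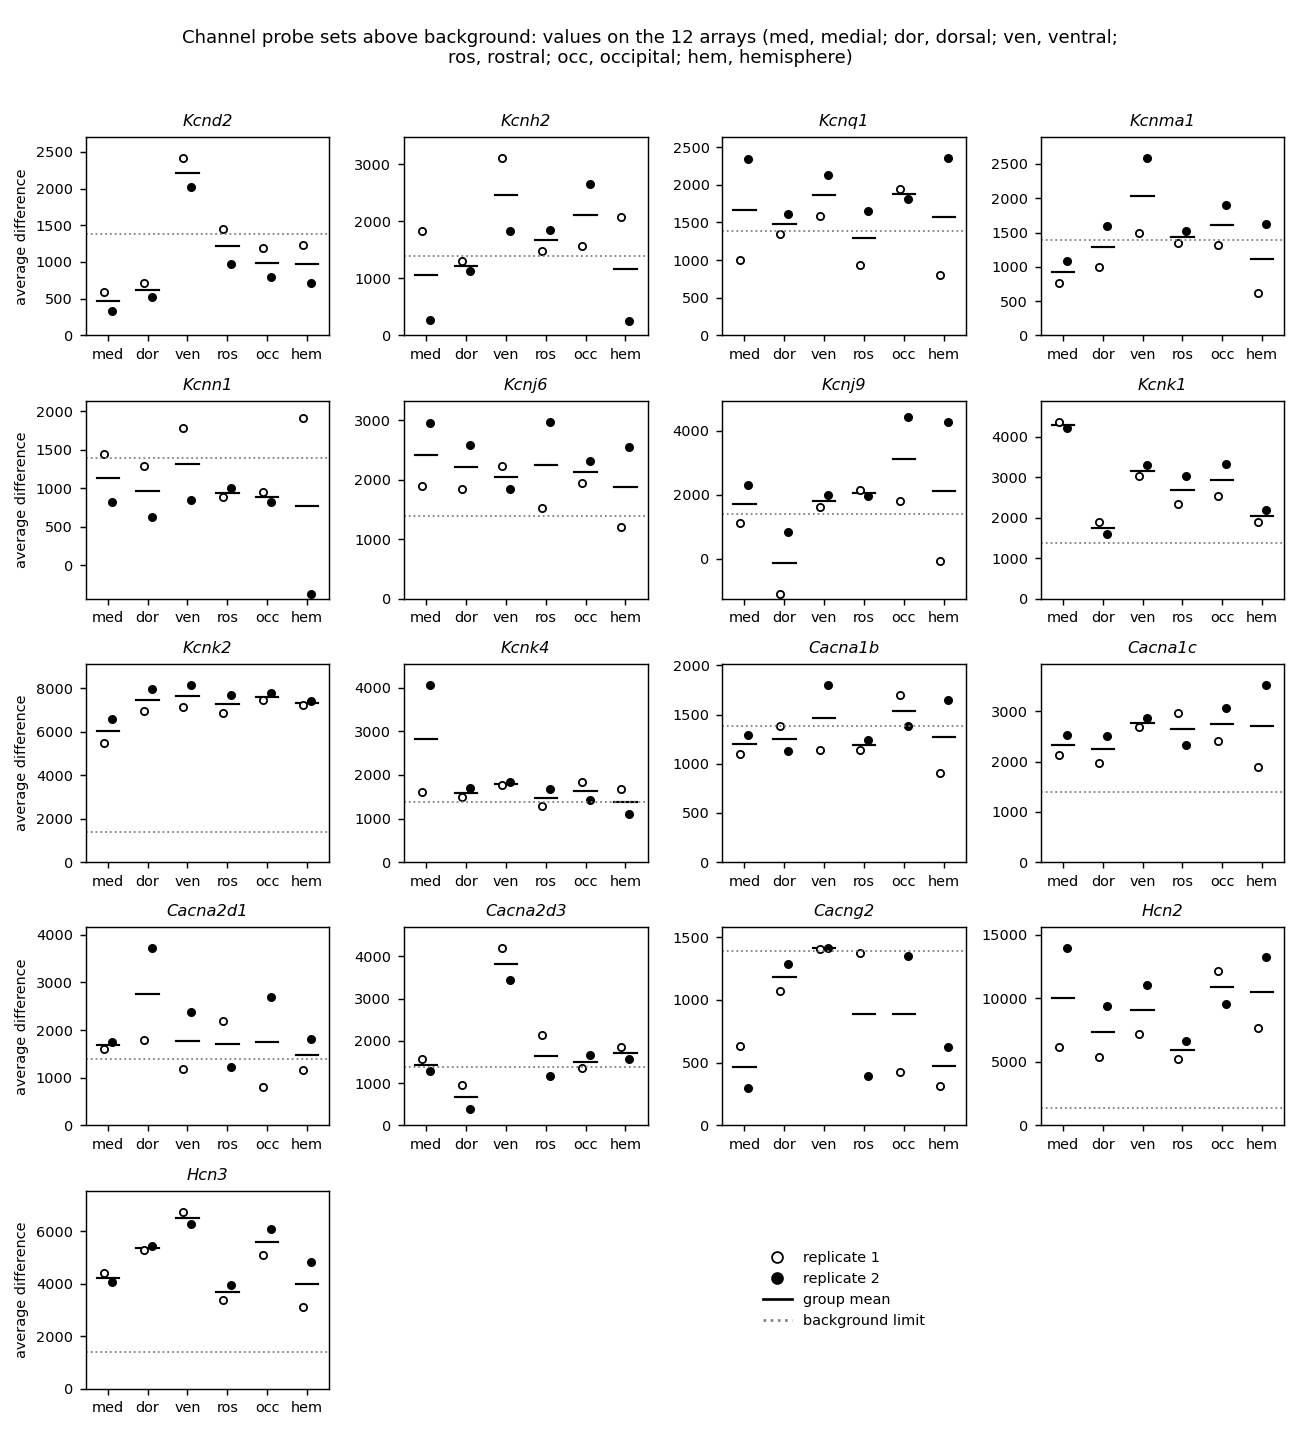
Average difference of the 17 channel probe sets above background on each of the 12 arrays, 1 panel per gene with its own linear axis; open circles are replicate 1, filled circles replicate 2, short lines group means and the dotted line the background limit of 1387. In Cacna2d3 and Kcnd2 both ventral arrays stand above all others, in Kcnk1 both medial arrays do, and in Kcnj9, Kcnh2 and Hcn2 the replicates of 1 group lie far apart.

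The ventral piece was the one in which channel genes passed a test. Cacna2d3 and Kcnd2 were higher in the ventral piece than in the other 4 pieces and 0 channels were lower, so 2 of the 17 tested members were called. Over all 5832 tested probe sets 571 were called (9.79%), 248 of them higher in the ventral piece (4.25%). The share of channels called lay near the 9.79% called in either direction and above the 4.25%, but it rests on only 2 genes. A gene admitted to the tests by its ventral arrays was bound to be high there. This concerns Cacng2, and also Kcnd2, which had only rostral replicate 1 above the limit besides them. The count over the 17 is therefore not read as a property of channel genes. In whole pieces of tissue, fewer cells of a type and less RNA per cell cannot be told apart.

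The stretches of 250 bases before the annotated starts of Cacna2d3 and Kcnd2, the channels that were higher in the ventral piece, and of Kcnk1, which had another pattern over the pieces, show what precedes these genes. They are from RefSeq, in assembly GRCm38.p6, 5′ to 3′ on the strand of the gene, at chr14:29721865-29722114 on the minus strand for Cacna2d3, chr6:21215096-21215345 on the plus strand for Kcnd2 and chr8:125994852-125995101 on the plus strand for Kcnk1. Capitals mark GC boxes, the letters GGGCGG and, for a match on the opposite strand, CCGCCC as they read here.
Cacna2d3: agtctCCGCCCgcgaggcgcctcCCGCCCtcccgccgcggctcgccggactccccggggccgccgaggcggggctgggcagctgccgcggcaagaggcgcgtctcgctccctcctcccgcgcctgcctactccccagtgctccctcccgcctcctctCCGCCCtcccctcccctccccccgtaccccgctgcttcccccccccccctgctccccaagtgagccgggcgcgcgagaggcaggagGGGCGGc
Kcnd2: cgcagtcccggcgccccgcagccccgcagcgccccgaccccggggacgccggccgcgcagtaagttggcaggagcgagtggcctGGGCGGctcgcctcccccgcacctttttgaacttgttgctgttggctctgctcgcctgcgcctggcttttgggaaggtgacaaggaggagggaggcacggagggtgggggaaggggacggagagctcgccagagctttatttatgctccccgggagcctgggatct
Kcnk1: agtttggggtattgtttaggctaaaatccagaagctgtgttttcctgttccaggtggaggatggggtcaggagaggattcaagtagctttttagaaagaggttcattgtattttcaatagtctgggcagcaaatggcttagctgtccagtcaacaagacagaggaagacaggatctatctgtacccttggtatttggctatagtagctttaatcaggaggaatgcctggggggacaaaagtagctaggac
The Cacna2d3 stretch is 80.0% G and C, with 30 CpG dinucleotides and 4 GC boxes, and the Kcnd2 stretch is 68.8% G and C with 22 CpG and 1 GC box. The Kcnk1 stretch is 44.4% G and C and holds 0 CpG and 0 GC boxes. Over all 32841 promoters of the table the median was 52.4% G and C with 6 CpG, and 32.7% held a GC box. The other motifs searched on both strands were TATAAA, held by 12.4% of all promoters, CCAAT (33.9%), CANNTG (66.2%) and TAATTA (4.84%). Cacna2d3 and Kcnk1 each had 2 matches to CANNTG, which reads the same on both strands, and Kcnd2 had 0. None of these 3 stretches held the other motifs, which says only that these letters are not in these windows. Of the 17 tested genes 15 have an entry, with 22 promoters between them, of which 12 held a GC box.

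Cacna2d3 encodes an extracellular alpha2delta subunit that raises the number of calcium channels at the membrane. Its values were 4186 and 3440 on the ventral arrays. In the other pieces they were 1566 and 1281 (medial), 954 and 384 (dorsal), 2129 and 1158 (rostral) and 1359 and 1656 (occipital), and the hemisphere gave 1853 and 1573. Both ventral arrays thus lay above the other 10, and both dorsal arrays were the lowest. The ventral mean was 3813 ± 528 (SD, n = 2) against 1311 ± 516 (SD, n = 8 arrays of the other pieces). On the log2 scale with values under the floor set to it, the difference was 1.56 ± 0.24 (SE), a 2.96-fold higher level (limma, adjusted p = 0.00513). Of the 8 other arrays 3 lay above the background limit; with the rest counted at the limit, the ventral level was at least 2.5-fold higher. The call was lost without ventral replicate 1 (1.42; limma, adjusted p = 0.0889) and kept without rostral and occipital arrays (1.82, limma, adjusted p = 0.00425).

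Kcnd2 forms the pore of the transient A-type potassium channel of neuronal dendrites. The tested probe set gave 2410 and 2016 on the ventral arrays. It gave 593 and 338 on the medial, 708 and 530 on the dorsal, 1450 and 979 on the rostral, 1187 and 795 on the occipital and 1233 and 714 on the hemisphere arrays. Both ventral arrays lay above the other 10, and of those only rostral replicate 1 passed the background limit. Without its ventral arrays Kcnd2 would not have been tested, so its ventral differences and their p-values are a description. The ventral mean was 2213 ± 279 (SD, n = 2) against 823 ± 366 (SD, n = 8), a log2 difference of 1.35 ± 0.24 (SE), or 2.54-fold (limma, adjusted p = 0.0108). With the arrays under the limit counted at the limit, the ventral level was at least 1.58-fold higher. The call was lost without ventral replicate 1 (1.22; limma, adjusted p = 0.143), without ventral replicate 2 (1.48; 0.0697) and with no filter on low values (1.35; 0.0505), so the threshold was missed with a difference of similar size. It was kept without rostral and occipital arrays (1.66, limma, adjusted p = 0.00876).

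The same 2 genes were called between the medial and ventral pieces, where 656 of all tested probe sets were (11.2%), 303 of them lower in the medial piece (5.2%). The share of channels again lay near that for either direction and above that for lower ones, and it rests on the same 2 genes. This pair of pieces was chosen with earlier results known and shares the ventral arrays with the comparison above. Those arrays admitted Kcnd2 to the tests, so its difference is a description here too. Kcnd2 fell by 1.67 ± 0.31 (SE) on the log2 scale, a fitted 3.18-fold (limma, adjusted p = 0.0107). Both medial arrays were below the background limit, so the medial level was at least 1.59-fold lower. Cacna2d3 fell by 1.42 ± 0.30 (SE), or 2.68-fold (limma, adjusted p = 0.0182), with 1 of the medial arrays above the limit and a bound of at least 2.58-fold.

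With 1 array left in the medial or ventral group the calls between these pieces mostly missed the threshold, while the differences stayed of similar size, -1.28 to -1.57 for Cacna2d3 and -1.54 to -1.80 for Kcnd2. Without medial replicate 1, medial replicate 2 or ventral replicate 1, Cacna2d3 had limma adjusted p = 0.0641, 0.109 and 0.122, and Kcnd2 had 0.0613, 0.0607 and 0.0835. Without ventral replicate 2 the Cacna2d3 call was lost too (limma, adjusted p = 0.0642), as it was with a floor 0.5 times the size (0.0822) and with no filter on low values (0.0743).

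**Figure D3:**
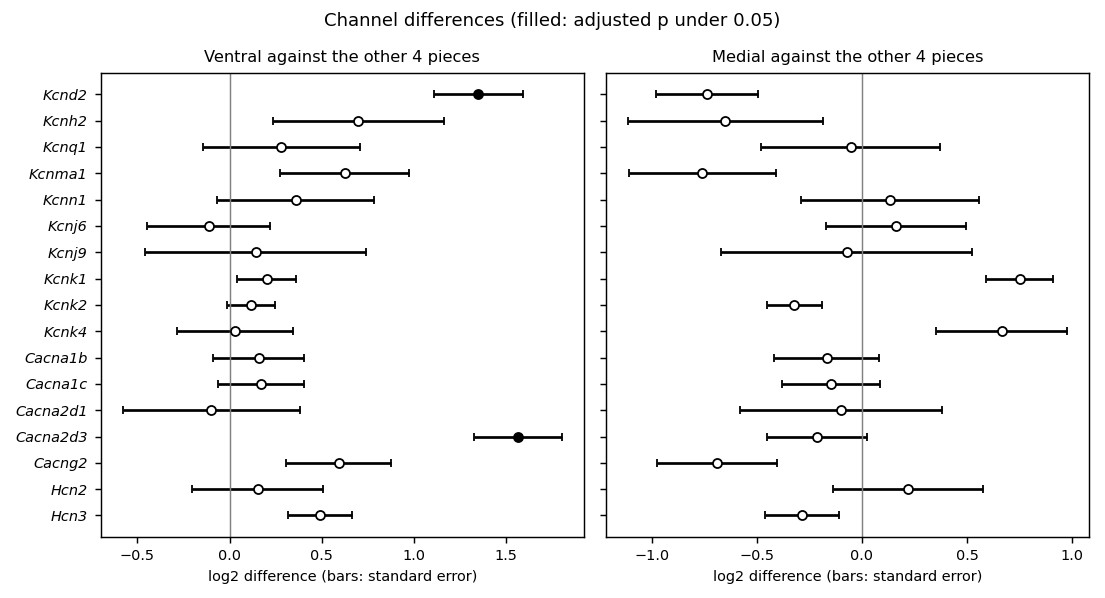
Log2 difference between the ventral piece (left) or the medial piece (right) and the mean of the other 4 pieces for the 17 tested channel probe sets, with standard errors as bars; filled circles had a limma adjusted p under 0.05. On the left Cacna2d3 (1.56) and Kcnd2 (1.35) are filled and lie farthest to the right, and on the right 0 of 17 are filled, with Kcnk1 (0.75) the highest.

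Other channels had their highest levels in the ventral piece without passing the test. Both ventral arrays lay above all 8 arrays of the other pieces for 4 of the 17 members, Cacna2d3, Kcnd2, Hcn3 and Cacng2, which was so for 10.7% of all tested probe sets. For Cacng2 the background limit fixed this order, since only its ventral arrays passed it, so it carries no weight in that count. Both lay below all 8 for 0 members, where 13.8% of all tested probe sets did. Ventral had the highest group mean for 9 members and the lowest for 0, against 27.9% and 30.5% of all tested probe sets. The median difference of ventral from the other pieces was 0.20 over the 17 and -0.02 over all tested probe sets, and 0 over all 75 members with no filter, since most of those lie at the floor. Cacng2 and Kcnd2 were admitted to the tests by their ventral arrays. That bears on the counts of 4 and 9 and on the median of 0.20, so none of these is read as a property of channel genes.

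Hcn3, a pacemaker channel subunit, gave 6741 and 6284 in the ventral piece. The other pieces gave 4400 and 4074 (medial), 5299 and 5418 (dorsal), 3381 and 3952 (rostral) and 5080 and 6067 (occipital), and the hemisphere 3111 and 4844. The ventral arrays were the highest 2, with occipital replicate 2 close to them. The ventral difference was 0.49 ± 0.17 (SE; limma, adjusted p = 0.129), and 0.0444 when either hemisphere array was left out. Against the medial piece the adjusted p moved likewise, from 0.117 to 0.0402 (limma).

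Cacng2, known as stargazin, belongs by sequence to the gamma subunits of calcium channels and escorts AMPA receptors to the synapse. Its medial values were 634 and 298, its dorsal values 1071 and 1286 and its ventral values 1409 and 1410. Its rostral values were 1373 and 395, its occipital values 428 and 1352 and its hemisphere values 313 and 628. The dorsal and ventral replicates lay close together, whereas in the rostral and occipital pieces 1 replicate was near the ventral level and the other near the medial level. The high arrays there were rostral replicate 1 and occipital replicate 2. The low ones, rostral replicate 2 and occipital replicate 1, had r = 0.963 over all tested probe sets. The ventral difference was 0.59 ± 0.28 (SE; limma, adjusted p = 0.257). Without rostral and occipital arrays the medial piece was lower than the dorsal and ventral pieces by a log2 difference of -0.89 (limma, adjusted p = 0.0318, against 0.315 with all arrays). As the ventral arrays alone admitted Cacng2 to the tests, its differences are a description and support nothing.

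Kcnma1, the pore of the large-conductance channel opened jointly by calcium and voltage, gave 1486 and 2580 in the ventral and 765 and 1081 in the medial piece. Dorsal values were 999 and 1593, rostral 1351 and 1524, occipital 1321 and 1908, and hemisphere 617 and 1625. The medial arrays lay below both arrays of the ventral, rostral and occipital pieces, while the ventral range overlapped those of the dorsal, rostral and occipital pieces. The difference between medial and ventral was -1.11 ± 0.44 (SE; limma, adjusted p = 0.161), and that of ventral from the other 4 pieces was 0.62 ± 0.35 (SE; limma, adjusted p = 0.338).

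Kcnk1 had another order of pieces. It encodes a weakly conducting background potassium channel, and it was highest in the medial and lowest in the dorsal piece. The medial arrays gave 4376 and 4219 and the dorsal arrays 1886 and 1597. Ventral values were 3028 and 3313, rostral 2347 and 3024, occipital 2538 and 3333, and hemisphere 1904 and 2207. The medial arrays lay above the other 10 and the dorsal arrays below them, and the hemisphere lay nearest to the dorsal piece.

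Neither end of that order passed the test in the main fit, with all arrays, the main floor and no block for replicate number. The medial piece differed from the other 4 by 0.75 ± 0.16 (SE), or 1.68-fold (limma, adjusted p = 0.0668), and the dorsal piece by -0.88 ± 0.16 (SE), or 1.85-fold (limma, adjusted p = 0.0839). Without rostral and occipital arrays both passed (limma, adjusted p = 0.041 and 0.0484), and with a floor 2 times as high the medial difference did (0.046). Medial arrays lay above all 8 arrays of the other pieces for Kcnk1 alone among the 17, which 4.96% of all tested probe sets did, and below all 8 for Kcnk2 alone, which 5.47% did. For Kcnk2 these values were 5457 and 6576, against 6872 to 8141 in the other pieces, a log2 difference of -0.32 ± 0.13 (SE; limma, adjusted p = 0.312).

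In the remaining comparisons 0 of the 17 members were called. For medial against the other pieces 1.27% of all tested probe sets were called. At an unadjusted p under 0.05 limma had 4 members there and 13.9% of all tested probe sets. For dorsal against the others 0.274% of all were called, and at an unadjusted p under 0.05 it was 4 members and 6.62% of all. Among these 4 was Cacna2d3 at -1.21 ± 0.24 (SE; limma, adjusted p = 0.122, and 0.0482 without rostral and occipital arrays). Without rostral replicate 2 alone the dorsal difference of Cacna2d3 also passed (limma, adjusted p = 0.0494). The F-test over all 6 groups called 0 members and 2.37% of all tested probe sets, and at an unadjusted p under 0.05 limma had 4 members and 14.3% of all. The smallest F-test values were those of Cacna2d3 (limma, adjusted p = 0.051), Kcnk1 (0.0574), Kcnd2 (0.0929) and Hcn3 (0.25).

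For the rostral piece, the occipital piece and the whole hemisphere, and for rostral against occipital, limma called 0 members and 0% of all tested probe sets. At an unadjusted p under 0.05 limma had 1, 0, 1 and 1 members in these comparisons, and 1.78%, 2.16%, 4.75% and 1.06% of all tested probe sets. The member in both rostral comparisons was Hcn3, lower in the rostral than in the occipital piece by a log2 difference of -0.59 in replicate 1 and -0.62 in replicate 2. For 9 of the 17 members the difference between rostral and occipital had opposite signs in the replicates, as it had for 59.2% of all tested probe sets. In the hemisphere comparison the member was Kcnk1, with a log2 difference of -0.47 from the mean of the pieces (limma, adjusted p = 0.962).

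The partners of the channels were read from lists of auxiliary proteins, anchors, sensors and pumps. For calcium channels and calcium handling 4 of 10 tested partners were higher in the ventral piece and 0 lower, where 4.25% of all tested probe sets were higher. They were Stx1a, Snap25 and Syt1, proteins of the synaptic release machinery to which presynaptic calcium channels are coupled, and the calcium buffer Calb1. Calb1 averaged 4315 ± 138 (SD, n = 2) in the ventral piece and 1016 ± 1126 (SD, n = 8) in the others.

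For potassium channels 1 of 4 tested partners was higher and 0 lower. It was Dpp6, an auxiliary subunit of the channels that Kcnd2 forms, at 9272 ± 430 (SD, n = 2) against 4168 ± 1490 (SD, n = 8), a log2 difference of 1.24 ± 0.29 (SE; limma, adjusted p = 0.0283). Of the ion pumps and cotransporters 3 of 7 were higher and 0 lower: Atp1b1 and Atp1b3, beta subunits of the sodium-potassium pump, and Fxyd7, a small regulator of that pump. Of the sodium channel partners 0 of 6 were higher and 1 was lower: Nedd4l, a ubiquitin ligase that removes sodium channels from the membrane, at 4919 ± 1025 (SD, n = 2) against 9365 ± 1729 (SD, n = 8). The probe sets of Nedd4l and Atp1b1 are of the f_at kind, which can also detect related sequences. The neuronal potassium-chloride cotransporter Slc12a5 was above background on 0 arrays. For medial against ventral the same directions held: 4 of 10 calcium partners, 3 of 7 pumps and 2 of 4 potassium partners (Dpp6 and the anchor Dlg4) were lower in the medial piece, and Nedd4l was higher. Over all tested probe sets 5.2% were lower there and 11.2% were called in either direction. The comparison shares the ventral arrays with the one above, so it is not a separate line of evidence.

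Cell type markers moved with the same pieces. Of 7 tested neuronal markers 4 were higher in the ventral piece and 0 lower (Snap25 and Syt1, which the calcium partner list holds too, Nefl and Gap43), and the summed level of the list was 220659 to 222531 there, 135459 to 166434 in the medial and 166400 to 198795 in the remaining pieces. Of 7 markers of GABAergic cells 4 were higher and 0 lower (Gad1, Slc32a1, Lhx6 and Sst). Over all tested probe sets 4.25% were higher in the ventral piece. Gad2 (log2 difference 0.89), Dlx1 (0.33) and Dlx2 (0.06) were not called, and Dlx2 averaged 3424 in the ventral piece and 3845 in the others. The sum of the GABAergic list was 99186 to 109511 in the ventral, 16997 to 21640 in the medial, 21756 to 24491 in the dorsal and 48612 to 67408 in the rostral and occipital pieces. The progenitor list had 1 of 6 tested genes lower, the proliferation marker Mki67, where 9.79% of all tested probe sets were called in either direction. Its sum was 75980 to 81015 in the ventral, 84634 to 86440 in the medial, 69450 to 71169 in the dorsal and 74540 to 91283 in the rostral and occipital pieces, so the ventral sum lay between those of the dorsal and the medial piece. Fabp7 made up most of that sum (ventral mean 54119), with a ventral log2 difference of 0.13. Pax6 (-0.54), Sox2 (-0.10), Nes (-0.50), Hes1 (-0.65) and Mki67 (-1.37) had negative ones. For medial against ventral, 3 of the 6 were higher in the medial piece (Pax6, Nes and Mki67), where 11.2% of all tested probe sets were called in either direction. Of the thalamus list Tcf7l2 was higher, while Gbx2, Lhx9 and Prox1 were above background on no array. The part of these markers in the differences of Cacna2d3 and Kcnd2 was not tested.

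For most channels, as for most probe sets, the group means did not spread more than single arrays did within groups. A mean of 2 arrays spreads less than single arrays do, so the 2 spreads are not on equal terms. The spread of the 6 group means was larger than the spread within groups for 6 of the 17 members (35.3%) and for 31.2% of all tested probe sets. Replicate 2 was above replicate 1 in all 6 groups for Kcnk2 and Kcnma1, and below it in all 6 for Kcnd2; 12.7% of all tested probe sets were higher and 12.7% lower in all 6 groups in that way. The means over the arrays numbered 1 and 2 were 1264 and 895 for Kcnd2, 1090 and 1718 for Kcnma1 and 6851 and 7594 for Kcnk2.

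Several channels had a replicate gap wider than any gap between pieces. Kcnj9, a G protein-gated inward rectifier subunit, ran from -1093 on dorsal replicate 1 to 4414 on occipital replicate 2, and the hemisphere alone gave -67 and 4275. Kcnh2, the ERG channel, gave 1837 and 278 in the medial piece, 2081 and 252 in the hemisphere and 3099 and 1831 in the ventral piece. Kcnn1 gave 1908 and -376 in the hemisphere. Kcnk4 was at 4064 on medial replicate 2 and between 1107 and 1838 on the other 11 arrays.

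The remaining tested members did not separate the pieces either. Kcnj6, the partner of Kcnj9 in G protein-gated channels, ran from 1207 to 2976 with a median of 2088, and was above the limit on 11 arrays. Kcnq1 ran from 801 to 2349, with both of these on hemisphere arrays. Cacna2d1, the alpha2delta subunit that binds gabapentin, ran from 809 on occipital replicate 1 to 3713 on dorsal replicate 2, and Cacna1b, the N-type pore, from 902 to 1800 with 3 arrays above the limit.

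For 13 channel genes the array holds more than 1 probe set, which gives a second reading of the same gene. In 8 of them all probe sets stayed below the limit (Cacna1e, Kcna5, Kcnab1, Kcnab2, Kcnj1, Kcnj15, Scn1a and Scn8a). In the other 5, Kcnd2, Hcn2, Kcnj6, Kcnj9 and Kcnq1, 1 probe set was above background and the other on no array. In 4 of these 5 the probe set above background was the only kind whose name ends in r_at, a suffix that Affymetrix gives to sets for which some rules of probe selection were dropped.

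**Figure D4:**
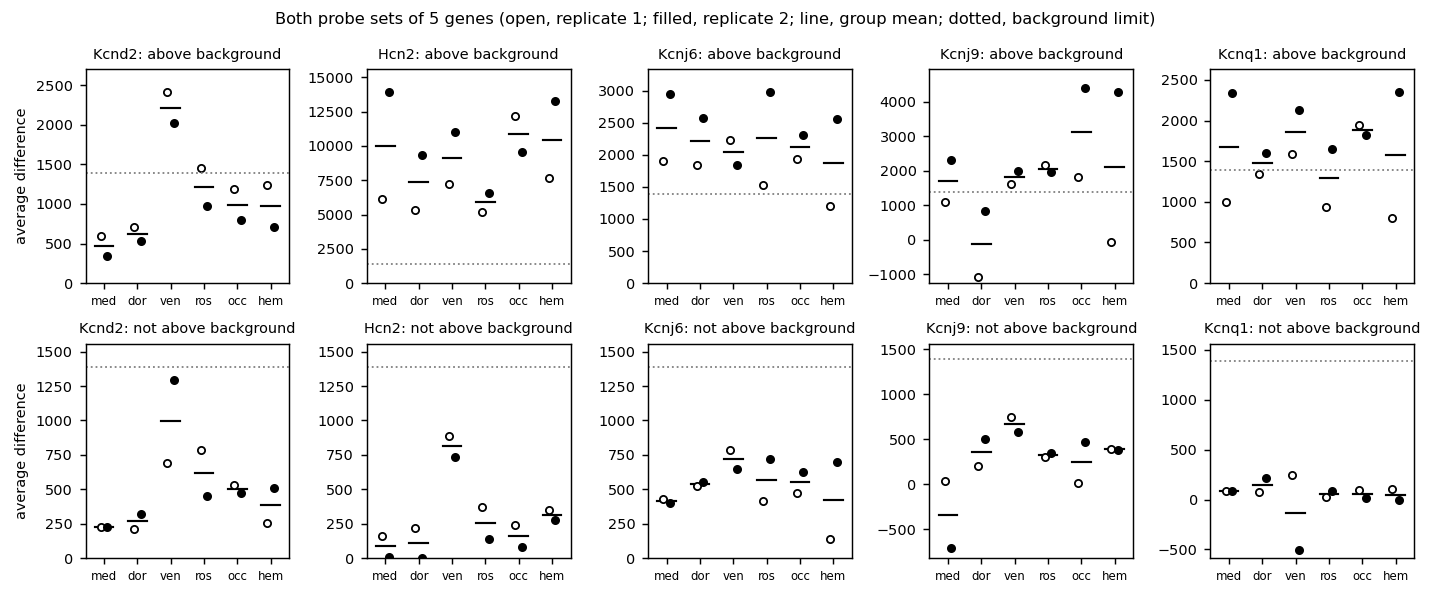
Average difference on the 12 arrays for both probe sets of the 5 genes in which only 1 was above background (upper row) and the other was not (lower row, limit of 1387 dotted); open circles are replicate 1, filled circles replicate 2 and lines group means. Both Kcnd2 probe sets have their highest group mean in the ventral piece, while the Hcn2 probe sets differ in level and in pattern.

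Both Kcnd2 probe sets had the ventral piece as the highest. The one below the limit gave 693 and 1292 on the ventral arrays, 222 and 228 on the medial, 213 and 319 on the dorsal, 783 and 454 on the rostral and 530 and 475 on the occipital arrays. Rostral replicate 1 lay above ventral replicate 1, so the groups overlapped, and the probe set was not tested because it passed the limit on 0 arrays. With a floor 0.5 times the size it entered the test and was called in the ventral piece. At that floor 5 of 29 channel probe sets and 539 of all 7332 were called there. For Hcn2 the probe set below the limit gave 889 and 735 on the ventral arrays and 2 to 374 on the other 10, whereas the one above it gave 7205 and 11024 on the ventral arrays, inside its range elsewhere. With a floor 0.5 times the size the lower Hcn2 probe set was called in the ventral piece too. Only its ventral arrays admitted it to that test, so the call carries no weight. For Kcnj6 and Kcnj9 the probe sets below the limit averaged 717 and 666 on the ventral arrays and 519 and 145 in the other pieces, while for Kcnq1 the averages were -134 and 85.3.

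Among the 58 members never above background, 28 had their highest array in the ventral piece (48.3%), and among all 6268 probe sets never above background 18.3% did. These values lie where noise and signal cannot be separated and were not tested in the main fit. Some examples, picked after their values were seen and mostly for a high ventral value, show the size of these differences. Scn1a, a pore of the fast sodium current, gave 1283 and 790 with its higher probe set on the ventral arrays and 209 to 895 in the other pieces. Cacna1a, the P/Q-type calcium channel pore, gave 699 and 572 against 121 to 497, and Kcnj4, a strong inward rectifier, 1215 and 1101 against 577 to 906. The reverse was seen for Kcne1l, an accessory subunit of potassium channels, with 177 and 138 on the ventral arrays and 1363 and 1310 on the medial ones.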

How the data were processed

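Gene expression was measured on 12 arrays, 2 per group. The labels' protocols describe poly(A)+ RNA as the source of the biotin-labelled cRNA and 2 scans of each array, and the molecule field says total RNA. Each deposited intensity is Affymetrix's average difference per probe set, already scaled by the authors: on every array the 2% trimmed mean was 2501.6 to 2501.9. The software is not given in the sources used here, and no further scaling was applied.

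Of 12488 probe sets, 66 controls were left out. A floor of 693.5 was computed as the root mean square over the values below 0. Lower values were raised to it before log2, which understates changes of low probe sets. Probe sets above 2 times the floor on at least 2 arrays were tested (5832). Differences were fitted in R 4.3.3 with limma 3.58.1, with 1 mean per group and no block (6 residual and 2.86 prior degrees of freedom), and p-values, two-sided, were adjusted over the 5832 probe sets (Benjamini-Hochberg), at a threshold of 0.05. The reference for a piece was the mean of the other 4 group means. A bound ("at least") counts arrays under the background limit at that limit.

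The channel genes, classes, partner and marker lists and comparisons were chosen with earlier results of these data known. Genes were named if called, if they had the smallest F-test p in their class, or if they had several probe sets, with the other tested members by range. All 75 channel probe sets carry 1 symbol and matched a RefSeq gene ID. Procedures were tested on simulated data. The alternatives were other floors and filters, an arcsinh scale, robust variances with a trend in limma, quantile normalization, a block, a fit without rostral and occipital arrays, and each array left out.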

Additional observations from a re-analysis of the deposited data

How the results depend on the processing

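The count of channel probe sets called moved with the floor, the filter, the arrays included and a replicate block. For ventral against the other pieces 2 of 17 members and 571 of all 5832 probe sets were called. A floor 0.5 times the size called 5 of 29 members (539 of all 7332). A floor 2 times as high called 1 of 8 (485 of all 4087) and a filter of 6 arrays 1 of 13 (521 of all 5117). For medial against ventral (2 called) the lower floor, the higher floor and the 6-array filter gave 4, 1 and 1, and no filter gave 1. The higher floor and the 6-array filter left Kcnd2 untested rather than uncalled. With no filter, ventral against the other pieces had 2 of 75 called (401 of all 12422), but Kcnj4 took the place of Kcnd2. The F-test (0 called) gave 1 and 2 with the lower and higher floor, 1 with the stricter filter, 1 over the 5 pieces alone and 4 without rostral and occipital arrays. For medial against the others (0 called) the higher floor gave 1 and the fit without rostral and occipital arrays 2, as it did for dorsal (0 called). That fit kept the 5832 probe sets chosen with all arrays. Cacng2 was among its 4 F-test calls and its 2 medial calls. The ventral arrays alone admitted Cacng2 to the tests, so these calls of it carry no weight. Kcnd2, also among the 4, would not have been tested without its ventral arrays, so its call is a description. Between 8 (higher floor) and 29 (lower floor) members passed the background limit, against 17. Leaving out each array in turn gave 0 to 3 calls for ventral and for medial against ventral, 0 to 1 for the F-test and for dorsal, and 0 in the other comparisons. Quantile normalization, the arcsinh scale and the trend with robust variances changed none of these counts by over 1.5 times, and no difference of a named channel that was recomputed changed sign under these alternatives.

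With replicate number as a block, limma called 3 members in the F-test (Kcnk1, Cacna2d3 and Kcnd2), 2 for dorsal (Kcnk1, adjusted p = 0.0419, and Cacna2d3, adjusted p = 0.0399), 1 for medial (Kcnk1, adjusted p = 0.0328) and 3 for medial against ventral, where Kcnma1 was added (limma, adjusted p = 0.0135). The block raised the calls among all 5832 tested probe sets too, so the gain was not particular to channels. These calls went from 138 to 352 in the F-test, from 16 to 45 for dorsal and from 74 to 256 for medial. Deviations of same-numbered arrays from their group means correlated at over 0.1 in 14 of the 15 pairs of groups (up to 0.56), the exception being rostral and occipital (-0.06). Outside its own group, an array correlated best with one of its own number in 10 of 12 cases, a hint from the data, but the labels do not say that a number marks a shared dissection. The 2 arrays per group and values near the background limit bound what these data can show for low-expressed channels.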
